A study of Mus musculus with 42 samples.

Results

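Tsc22d3, Btg1 and Gimap4 are genes that resting lymphocytes transcribe, and their RNA was followed here through the life of mouse CD4+ T cells from the naive state to effector, rested and memory cells. A reporter (a cDNA spotted on the array) was taken when the platform's probe-to-gene table gave it a single symbol that was Tsc22d3, Btg1 or Gimap4. The rule found 3 of 4992 reporters, 1 for each gene, and 6 of 9600 spots, since each of these reporters was spotted at 2 positions. Tsc22d3 (Entrez gene 14605) lies on chromosome X, Btg1 (Entrez gene 12226) on chromosome 10 and Gimap4 (Entrez gene 107526) on chromosome 6.

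The cells came from mice that carry the AND T cell receptor transgene, which recognises a pigeon cytochrome C peptide on I-Ek, together with a GFP transgene. All 7 groups share both transgenes, so every group is 1 T cell specificity. Naive cells were taken from spleen as CD44lo, CD62Lhi, CD45RBhi and CD25- cells, although the source field of the labels reads thymus. Effector Th1 and effector Th2 cells had been stimulated in culture with antigen presenting cells for 4 days under Th1 or Th2 conditions. Rested Th1 and rested Th2 cells had a further 3 days in culture without antigen presenting cells. Memory Th1 and memory Th2 cells were rested cells that had been transferred into mice without a thymus, lethally irradiated and rebuilt with bone marrow depleted of T cells, and were sorted back after 4 to 12 weeks. Memory therefore differs from rest in the passage through a host, in time and in sorting, and these cannot be told apart. The memory Th2 samples are titled M-Th2 but described as RM-Th2 in the labels, and the title was followed. The age and number of the mice, and whether samples 1, 2 and 3 of a group came from separate animals or cultures, were not stated in the labels, so the p-values measure only the spread between these samples.

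Tsc22d3 encodes GILZ, a leucine zipper protein that glucocorticoids and FoxO factors induce and that binds AP-1, NF-kB, Raf and Ras proteins in T cells, which dampens T cell receptor signalling. Btg1 belongs to the BTG and TOB family of antiproliferative proteins, which bind the deadenylase subunits of the CCR4-NOT complex and promote shortening of the poly(A) tail of messenger RNAs. In mouse T cells Btg1 acts with its relative Btg2 to keep messenger RNA low and cells quiescent. Gimap4 is a GTPase of the immunity-associated (GIMAP) family, which lymphocytes express and which affects their survival.

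The promoters are shown because all 3 genes fell in at least 1 effector group, and a reader may wish to see which elements their start sites hold. RefSeq's promoter table (GRCm38.p6) had windows of 300 bases, from 250 before to 50 after a start site, for 3 of the 3 genes, with 1 window for Btg1, 1 for Gimap4 and 3 for Tsc22d3. The windows below are read 5′ to 3′ on the gene's own strand. Capitals mark the FoxO core (TGTTTAC) and the glucocorticoid receptor half-site (AGAACA) on either strand. The Btg1 window is chr10:96616751-96617050 on the plus strand, that of Gimap4 is chr6:48684328-48684627 on the plus strand, and the Tsc22d3 window with a match is chrX:140600473-140600772 on the minus strand.
Btg1: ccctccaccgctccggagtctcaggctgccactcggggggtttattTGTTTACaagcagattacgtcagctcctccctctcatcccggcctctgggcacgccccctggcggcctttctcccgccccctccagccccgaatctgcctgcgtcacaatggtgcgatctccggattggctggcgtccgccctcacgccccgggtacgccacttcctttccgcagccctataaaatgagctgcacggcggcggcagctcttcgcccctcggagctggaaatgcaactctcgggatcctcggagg
Gimap4: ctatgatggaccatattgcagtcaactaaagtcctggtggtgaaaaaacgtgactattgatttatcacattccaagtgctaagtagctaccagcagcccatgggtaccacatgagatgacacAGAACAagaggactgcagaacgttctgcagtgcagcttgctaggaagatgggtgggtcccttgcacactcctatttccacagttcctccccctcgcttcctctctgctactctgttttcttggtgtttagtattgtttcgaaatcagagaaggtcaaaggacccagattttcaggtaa
Tsc22d3: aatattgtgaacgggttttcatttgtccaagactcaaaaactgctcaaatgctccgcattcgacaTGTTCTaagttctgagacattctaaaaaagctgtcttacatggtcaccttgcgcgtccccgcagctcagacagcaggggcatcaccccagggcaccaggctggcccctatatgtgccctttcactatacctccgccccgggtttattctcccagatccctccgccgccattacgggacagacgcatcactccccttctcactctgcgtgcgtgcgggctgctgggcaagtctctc
The Btg1 window held a FoxO core whose first base lies at -204 from the start site and a TATA box (TATAAA) at -26. Of the 32851 promoter windows in the table, 3.65% held the FoxO core and 13.6% held TATAAA on either strand. The Gimap4 window held a half-site at -128, and this Tsc22d3 window held one on the opposite strand at -185. Half-sites stood in 19% of all windows. None of the 5 windows held the full glucocorticoid receptor site (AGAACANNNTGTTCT, which contains a half-site on each strand, in 0.00913% of windows), the AP-1 motif (TGANTCA, 7.81%) or the full CRE (TGACGTCA, 1.79%). The core TGACG, which stands in 20.8% of windows and within every full CRE, matched in Btg1 and in 1 other Tsc22d3 window, chrX:140548522-140548821. The CCAAT box (CCAAT, 37.4%) matched in Btg1 alone of the 3 genes. The motifs were chosen with these windows in view, a match is only a run of letters, and which Tsc22d3 start these cells use was not measured.

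Each of the 21 samples was hybridised to 2 arrays, a and b, which gave 4 spot values for each gene and sample. The arrays have 1 channel and were probed with 33P-labelled cDNA, and 3 samples for each group limit the precision. The median intensity of an array lay between 5.74 and 12.99, and between samples of the same group Pearson's r across reporters, which are not independent replicates, was 0.893 to 0.974. A level is given below as log2 of the quantile-normalised intensity plus 1, which understates changes of dim reporters. A change is the difference of 2 group means on that scale with the standard error (SE) of a limma fit over all groups, and a gene is called at an adjusted p under 0.05 (Benjamini-Hochberg over 4992 reporters). The median reporter was at 3.13, and no background reading was used here, so how far a level near 3 stands above background is unknown.

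Some samples are not independent measurements. In 13 pairs of samples that carry the same number in different groups, the ratio of array a to array b was the same at every spot to within 0.01 on the log2 scale, over 5098 spots, whereas no other pair correlated above 0.176. The 21 samples held 10 such patterns. Naive, memory Th1 and memory Th2 samples 1 share a pattern, as do their samples 3, and Th1 and Th2 samples of 1 stage share theirs at all 3 numbers. For these genes the 4 intensity ratios of such a pair were therefore 1 value, for example 2.13 in all 4 spots for Btg1 in effector Th1 sample 1 over effector Th2 sample 1. Comparisons of effector with naive, rested with effector, memory with rested and rested with naive cells share no pattern. Comparisons of memory with naive cells share it at 2 of 3 numbers, and those of Th1 with Th2 at all 3, so agreement between the arrays or spots of those pairs is no check of them. The labels do not say how the pattern arose.

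Markers cannot check the labelled cell type. None of 12 CD4 T cell, 10 B cell and 7 CD8 T or NK cell markers was among the reporters with a single gene. Of 14 macrophage and dendritic cell markers 6 were measured, of which Lyz2 (lysozyme) and Fcer1g were lower than naive in all 6 other groups. Fcgr1, the brightest of the 6, went the other way in rested cells. Its mean level was 6.95 in naive, 7.60 in rested Th1 and 7.89 in rested Th2 cells, uncalled against naive (adjusted p = 0.290 and 0.233). It was called higher in rested than in effector Th2 cells (1.19 ± 0.36, adjusted p = 0.0454). Fcgr1 was the largest part of the list's sum. The macrophage and dendritic list summed to a normalised intensity of 205.8 to 284.2 in naive, 113.3 to 208.3 in effector Th1, 116.4 to 169.6 in effector Th2, 152.7 to 290.3 in rested Th1, 191.8 to 345.5 in rested Th2, 148.3 to 255.4 in memory Th1 and 171.0 to 224.6 in memory Th2 samples. In bulk RNA, fewer cells of a type and less RNA per cell cannot be told apart.

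**Figure D1:**
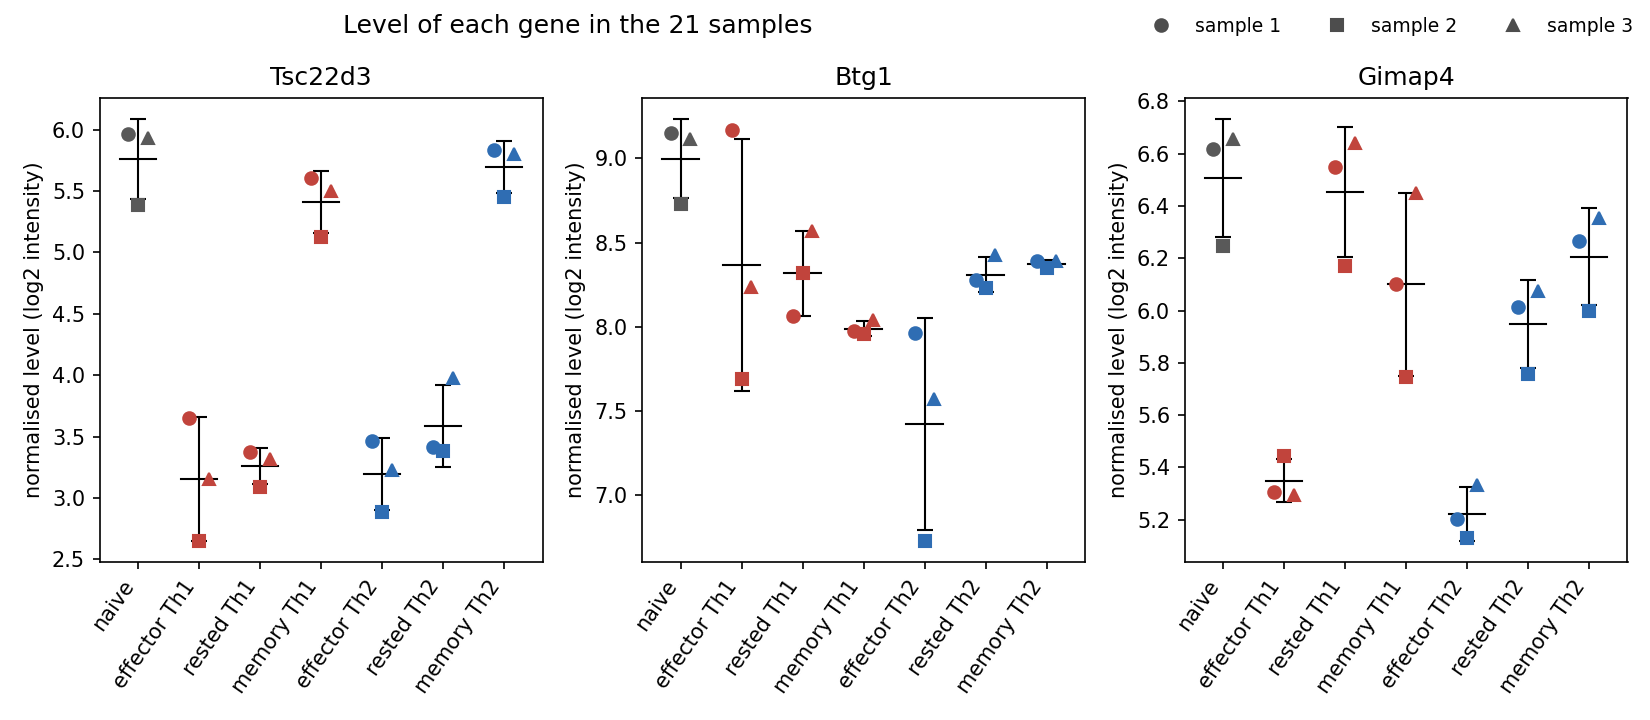
Level of Tsc22d3, Btg1 and Gimap4 in the 21 samples, as log2 of quantile-normalised intensity plus 1. Each point is 1 sample (mean of 2 arrays and 2 spots), its shape gives the sample number, bars are the mean ± SD of 3 samples, and the vertical axes do not start at 0. Tsc22d3 lies above 5 in naive and memory and below 4 in effector and rested samples, Gimap4 is lowest in effector samples, and Btg1 is highest in naive samples with a wide spread in effector samples.

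Tsc22d3 was high in naive and memory cells and low in effector and rested cells of both lineages. Its levels in samples 1, 2 and 3 were 5.96, 5.39 and 5.93 in naive cells. They were 3.65, 2.65 and 3.15 in effector Th1 and 3.47, 2.88 and 3.23 in effector Th2 cells. All 6 effector samples lay below all 3 naive samples, and 28.3% of all reporters did not overlap between effector Th1 and naive and 29.5% between effector Th2 and naive samples. After rest the levels were 3.37, 3.09 and 3.32 in rested Th1 and 3.41, 3.38 and 3.97 in rested Th2 cells, still below every naive sample. Of all reporters 26.5% did not overlap between rested Th1 and naive and 21.9% between rested Th2 and naive samples. In memory cells the levels were 5.60, 5.13 and 5.50 for Th1 and 5.84, 5.45 and 5.80 for Th2, which overlap the naive samples and lie above every effector and rested sample. Between memory and rested samples 26.7% of reporters did not overlap in Th1 and 22.3% in Th2. The means order as naive 5.76, memory Th2 5.70, memory Th1 5.41, rested Th2 3.59, rested Th1 3.26, effector Th2 3.19 and effector Th1 3.15. In this order the one gap without overlap and of more than 1 unit was between memory Th1 and rested Th2. Rested Th2 and rested Th1 samples did not overlap either, as for 13.2% of reporters, with means 0.33 apart, and all other neighbours overlapped. The shares of all reporters without overlap were not counted for memory Th1 against rested Th2 samples or for memory against effector samples.

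Btg1 was highest in naive cells, at 9.15, 8.73 and 9.11 in samples 1, 2 and 3. Effector Th1 samples were at 9.17, 7.69 and 8.24, so that sample 1 was as high as the naive samples and the other two were below them. Effector Th2 samples were at 7.96, 6.73 and 7.57, all below the naive samples and each below the effector Th1 sample of the same number. Rested Th1 samples stood at 8.06, 8.32 and 8.57, and rested Th2 samples at 8.28, 8.23 and 8.43. Memory Th1 samples stood at 7.97, 7.96 and 8.04, and memory Th2 samples at 8.39, 8.35 and 8.39. Every rested and memory sample was below every naive sample. Reporters without overlap with naive samples were 29.5% for effector Th2, 26.5% for rested Th1 and 21.9% for rested Th2. They were 16.3% for memory Th1 and 13.4% for memory Th2. The SD over 3 samples was 0.75 in effector Th1 and 0.63 in effector Th2 cells against 0.04 in memory Th1 and 0.02 in memory Th2 cells. The means order as naive 9.0, memory Th2 8.38, effector Th1 8.37, rested Th1 8.32, rested Th2 8.31, memory Th1 7.99 and effector Th2 7.42. Naive samples did not overlap memory Th2 samples, nor rested Th2 samples memory Th1 samples, and the other neighbours in this order overlapped. The share of all reporters without overlap was not counted for rested Th2 against memory Th1 samples.

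Gimap4 was low in effector cells alone of the 4 stages. Naive samples 1, 2 and 3 were at 6.62, 6.25 and 6.66. Effector Th1 samples were at 5.31, 5.44 and 5.30, and effector Th2 samples at 5.20, 5.13 and 5.33. All effector samples lay below all samples of every other stage. Of all reporters 28.3% and 29.5% did not overlap between effector Th1 or Th2 and naive samples. Between rested and effector samples it was 28.8% in Th1 and 29.1% in Th2. The shares for effector against memory samples, for rested Th2 against effector Th1 samples and for all stages at once were not counted. Rested Th1 samples were at 6.55, 6.17 and 6.64, within the naive range or just under it. Rested Th2 samples were lower, at 6.01, 5.76 and 6.07, and did not overlap the rested Th1 or the naive samples. This was so for 13.2% and 21.9% of all reporters. Memory Th1 samples were at 6.10, 5.75 and 6.45 and memory Th2 samples at 6.27, 6.0 and 6.35, both reaching into the naive range. The means order as naive 6.51, rested Th1 6.45, memory Th2 6.21, memory Th1 6.10, rested Th2 5.95, effector Th1 5.35 and effector Th2 5.22, and the one pair of neighbours without overlap was rested Th2 and effector Th1.

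The first comparison asked what 4 days of stimulation did to the genes. In effector Th1 cells Tsc22d3 fell by 2.61 ± 0.28 (log2 change ± SE, adjusted p = 1.29e-06, 6.10-fold) and Gimap4 fell by 1.16 ± 0.22 (adjusted p = 0.00145, 2.23-fold). Btg1 changed by -0.63 ± 0.32 and was not called (adjusted p = 0.287, 95% interval -1.31 to 0.04). Without effector Th1 sample 1, the bright one, its change was -1.04 with an adjusted p of 0.0448. Of all reporters 9.88% were called in effector Th1 against naive cells (493, or 836 with the sample number as a block, which takes out differences between numbers), beside 2 of these 3 genes. Within sample numbers Tsc22d3 differed by -2.31, -2.74 and -2.78, and Btg1 by 0.01, -1.04 and -0.88.

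In effector Th2 cells all 3 genes fell. The change was -2.57 ± 0.28 for Tsc22d3 (adjusted p = 1.74e-06), -1.58 ± 0.32 for Btg1 (adjusted p = 0.00232, 2.99-fold) and -1.29 ± 0.22 for Gimap4 (adjusted p = 0.000525, 2.44-fold). In this comparison 9.13% of reporters were called (456, or 761 with the block). All 9 differences within sample numbers were negative, from -2.0 to -1.19 for Btg1. The Tsc22d3 change was larger in size than that of 98.9% of reporters in effector Th1 and 99.0% in effector Th2 cells. Lyz2 also fell, by 3.33 and 3.18 in effector Th1 and Th2 cells, as did the granulocyte gene S100a9 by 3.73 and 3.76. Of 9 granulocyte markers 3 were measured. The others, Csf3r (-0.78 and -0.71) and Ltf (-0.33 and -0.32), were not called there. The list's sum, most of which was Csf3r, was a normalised intensity of 148.0 to 244.6 in naive, 58.8 to 170.1 in effector Th1 and 59.99 to 153.1 in effector Th2 samples. It was 230.5 to 373.8 in rested Th1 samples, where Csf3r rose over effector cells by 1.85 ± 0.42 (adjusted p = 0.00404). The part of these markers in the falls was not tested.

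**Figure D2:**
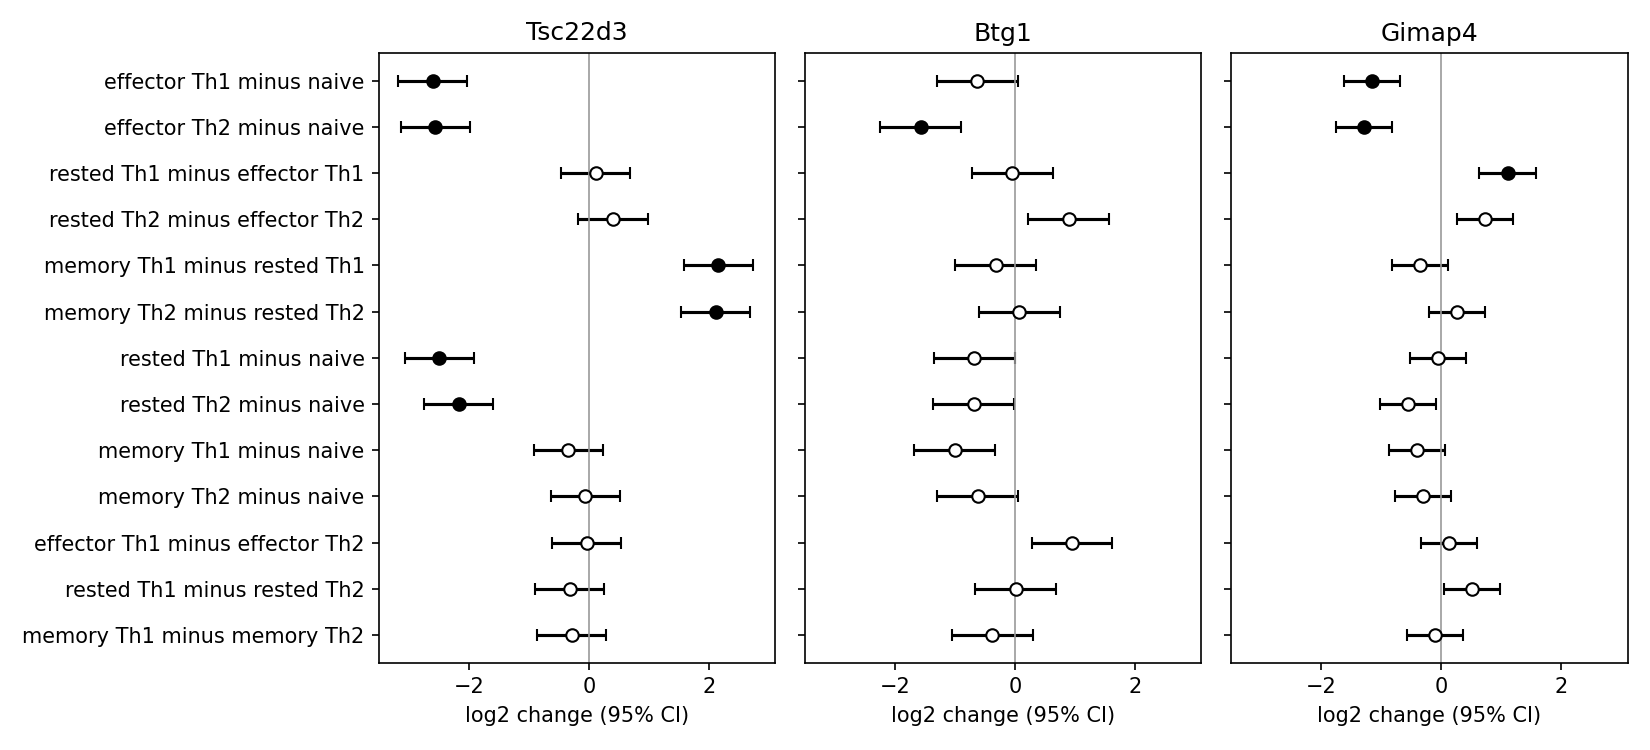
Log2 change of Tsc22d3, Btg1 and Gimap4 in 13 comparisons of group means (limma fit, 3 samples for each group). Points are changes, bars 95% intervals and filled points an adjusted p under 0.05. Tsc22d3 has filled points at 6 comparisons (effector and rested against naive, memory against rested), Gimap4 at 3 and Btg1 at 1.

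The next comparison asked which genes came back after 3 days without antigen presenting cells. Gimap4 rose in rested Th1 over effector Th1 cells by 1.11 ± 0.22 (adjusted p = 0.00174, 2.15-fold), with differences within sample numbers of 1.24, 0.73 and 1.35. With the arrays centred on their medians in place of quantile normalisation this rise was 0.72 and was not called (adjusted p = 0.0801). Tsc22d3 changed by 0.11 ± 0.28 (adjusted p = 0.859, interval -0.47 to 0.68) and Btg1 by -0.05 ± 0.32 (adjusted p = 0.951, interval -0.72 to 0.63), and neither was called. Of all reporters 16.2% were called in this comparison (810, or 1362 with the block).

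In Th2 cells the rise of Gimap4 on rest was 0.73 ± 0.22 with groups that did not overlap (adjusted p = 0.0556), and it was called once the sample number was a block (adjusted p = 0.00636). Btg1 stood 0.89 ± 0.32 higher in rested than in effector Th2 cells, again without overlap (adjusted p = 0.113, and 0.0356 with the block). Tsc22d3 changed by 0.40 ± 0.28 (adjusted p = 0.526, interval -0.18 to 0.97). In this comparison 7.57% of reporters were called (378, or 790 with the block) and 29.1% did not overlap between the groups. Whether the rest step differed between Th1 and Th2 cells was tested as an interaction, in which 0.1% of reporters were called (5, or 12 with the block). The difference of the steps was -0.29 ± 0.39 for Tsc22d3, -0.94 ± 0.46 for Btg1 and 0.38 ± 0.32 for Gimap4, each with an adjusted p of 1.00. With the shared pattern as a random block, 398 reporters were called, Btg1 among them (-0.94, adjusted p = 0.00578).

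Against naive cells, the rested cells kept Tsc22d3 low. The change was -2.50 ± 0.28 in rested Th1 (adjusted p = 4.69e-06, 5.66-fold) and -2.17 ± 0.28 in rested Th2 cells (adjusted p = 7.58e-05, 4.51-fold). Of all reporters 10.5% were called in rested Th1 (523, or 1082 with the block) and 2.96% in rested Th2 against naive cells (148, or 344 with the block). Gimap4 differed from naive by -0.05 ± 0.22 in rested Th1 (adjusted p = 0.932, interval -0.52 to 0.42) and by -0.56 ± 0.22 in rested Th2 cells (adjusted p = 0.278, interval -1.03 to -0.09), where the samples did not overlap. Btg1 stood 0.68 and 0.69 lower in rested Th1 and rested Th2 cells (changes of -0.68 and -0.69, SE 0.32, adjusted p = 0.207 and 0.397). The Btg1 samples did not overlap the naive ones in either, which was so for 26.5% and 21.9% of all reporters.

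Memory cells were set against the rested cells that had been transferred. Tsc22d3 rose by 2.15 ± 0.28 in memory Th1 (adjusted p = 5.08e-05, 4.43-fold) and by 2.11 ± 0.28 in memory Th2 cells (adjusted p = 0.000156, 4.32-fold). The differences within sample numbers were 2.23, 2.04 and 2.18 in Th1 and 2.42, 2.08 and 1.83 in Th2 cells. In memory Th1 against rested Th1 cells 17.8% of reporters were called (887, or 1607 with the block), and in Th2 cells 3.91% (195, or 719 with the block). The change of Tsc22d3 was larger in size than that of 98.8% of reporters in Th1 and 99.7% in Th2 cells.

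Neither Btg1 nor Gimap4 was called in this step. Btg1 changed by -0.33 ± 0.32 in Th1 (adjusted p = 0.509), where memory and rested samples did not overlap, as for 26.7% of reporters, and by 0.07 ± 0.32 in Th2 cells (adjusted p = 0.934). Gimap4 changed by -0.35 ± 0.22 in Th1 (adjusted p = 0.291) and 0.26 ± 0.22 in Th2 cells (adjusted p = 0.547). The signs in Th1 cells hung on the scaling, since with median centring the changes were 0.28 for Btg1 and 0.02 for Gimap4, both uncalled. The interaction of memory step and lineage was called for 0.0601% of reporters (3, or 52 with the block). It was 0.04 ± 0.39 for Tsc22d3, -0.39 ± 0.46 for Btg1 and -0.61 ± 0.32 for Gimap4, with adjusted p of 0.998, 0.998 and 0.802. With the shared pattern as a random block 823 reporters were called, Gimap4 among them (-0.61, adjusted p = 0.00933).

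Of 6 thymocyte markers 2 were measured, of which 1, Cd1d1, moved with Tsc22d3 in this step. Cd1d1, which presents lipid antigens, fell in effector Th1 and Th2 cells by 1.43 and 1.83 and rose in memory over rested cells by 1.55 in Th1 and 2.64 in Th2. The other, Cd24a, changed by -0.80 ± 0.37 in Th1 (adjusted p = 0.138, and 0.0386 with the block) and by 0.00 ± 0.37 in Th2 cells, and was not called in effector cells. The list's sum, most of which was Cd1d1, was a normalised intensity of 104.4 to 154.0 in naive, 42.6 to 56.9 in effector Th1, 35.3 to 48.3 in effector Th2, 39.3 to 94.4 in rested Th1, 29.5 to 39.5 in rested Th2, 128.9 to 181.9 in memory Th1 and 154.3 to 199.4 in memory Th2 samples. The part of Cd1d1 in the rise of Tsc22d3 was not tested. Lyz2 was lower in memory Th1 and memory Th2 than in naive cells (changes of -5.23 and -3.25, adjusted p of 1.32e-09 and 2.74e-06). Fcgr1 of the same list had means of 7.59 in memory Th1 and 7.48 in memory Th2 against 6.95 in naive cells, uncalled. The part of these markers in the course of Tsc22d3 was not tested.

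Between memory and naive cells the Tsc22d3 and Gimap4 samples overlapped in both lineages, and whether Btg1 and Gimap4 were called depended on how the pairing and the shared pattern entered the fit. Without a block no gene of the 3 was called. Tsc22d3 differed by -0.35 ± 0.28 in memory Th1 (adjusted p = 0.632, interval -0.93 to 0.22) and by -0.06 ± 0.28 in memory Th2 cells (adjusted p = 0.978, interval -0.64 to 0.51). Gimap4 differed by -0.41 ± 0.22 (adjusted p = 0.475) and -0.30 ± 0.22 (adjusted p = 0.761). Btg1 stood apart without overlap in both, with changes of -1.01 ± 0.32 in memory Th1 (2.01-fold, adjusted p = 0.167, and 0.0409 with the block) and -0.62 ± 0.32 in memory Th2 cells (adjusted p = 0.596). Called reporters were 0.781% in memory Th1 (39, or 298 with the block) and 0.28% in memory Th2 against naive cells (14, or 70 with the block), and 16.3% and 13.4% of reporters did not overlap. With the shared pattern as a random block, 1489 and 1187 reporters were called. Among them were Btg1 at -1.10 in memory Th1 (adjusted p = 5.81e-05) and -0.71 in memory Th2 (adjusted p = 0.00307), and Gimap4 at -0.39 in memory Th1 cells (adjusted p = 0.0217). The Btg1 difference of memory Th1 samples 1 and 3 from naive was a ratio of intensities of 0.486 and 0.509 in each of the 4 spots, by the shared pattern.

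Between Th1 and Th2 cells of a stage no gene of the 3 was called without a block or with the sample number as a block, and Btg1 and Gimap4 were each called in 1 stage with the shared pattern as a random block. Called reporters were 0.18% in effector (9, or 26 with the block), 0.361% in rested (18, or 118 with the block) and 0.2% in memory cells (10, or 20 with the block). With the shared pattern as a random block they numbered 121, 1005 and 396. Btg1 was higher in effector Th1 than in effector Th2 cells by 1.21, 0.96 and 0.67 within sample numbers 1, 2 and 3, a mean of 0.94 ± 0.32 (unadjusted p = 0.00838, adjusted p = 1.00, and 0.000235 with the shared pattern as a random block). This exceeded the change of 99.1% of reporters, but the 2 groups overlapped. Gimap4 was higher in rested Th1 than in rested Th2 cells by 0.54, 0.41 and 0.57, a mean of 0.51 ± 0.22 (unadjusted p = 0.0363, adjusted p = 0.50, and 0.00223 with the shared pattern as a random block), without overlap, as for 13.2% of reporters. In memory cells Btg1 was lower in Th1 by 0.39 ± 0.32 (a change of -0.39, adjusted p = 0.9992), again without overlap, as for 5.57% of reporters. Tsc22d3 differed by -0.04, -0.33 and -0.29 in effector, rested and memory cells, each with an SE of 0.28.

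The correlation over 21 samples was 0.46 for Tsc22d3 with Btg1, 0.59 for Tsc22d3 with Gimap4 and 0.54 for Btg1 with Gimap4, which is a description, since samples share arrays' patterns and depth. After the group means were removed it was 0.77, 0.49 and 0.14. Sample number 2 was the lowest of its group in 7 of 7 groups for Tsc22d3, in 6 for Btg1 and in 6 for Gimap4. Of all reporters, 6.11% had number 2 lowest in 6 or 7 groups, 7.49% had number 1 and 9.88% had number 3.

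Of 47 genes listed for quiescence and naive T cells, 22 were measured, these 3 included. In effector Th1 cells 4 of the 22 (18.2%) fell and none rose, where 4.35% of all reporters fell, and 2 of the 4 are genes of the 3, with a list median of -0.40 against -0.02 over all genes. Beside Tsc22d3 and Gimap4 these were Cdkn2c, which encodes a CDK4 and CDK6 inhibitor (-1.39 ± 0.27, adjusted p = 0.00151), and Foxo1, a transcription factor of naive cells (-1.02 ± 0.32, adjusted p = 0.0469). The Foxo1 call remained in 1 of 6 fits that left out a naive or effector sample. In effector Th2 cells 4 of 22 (18.2%, against 3.83% of all reporters) fell and none rose, namely the 3 genes and Cdkn2c (-1.32 ± 0.27, adjusted p = 0.00245), with a median of -0.47 against -0.03. Without the 3 genes, 2 of 19 fell in effector Th1 (median -0.38) and 1 of 19 in effector Th2 cells (median -0.38).

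On rest, 3 of the 22 (13.6%) rose in Th1 cells and none fell, where 7.61% of all reporters rose and 8.61% fell, so the share called was below the 16.2% over all reporters. They were Pdcd4, an inhibitor of translation (1.56 ± 0.28), Cdkn2c (1.33 ± 0.27) and Gimap4, with 4 rising and 2 falling once the block was used. In Th2 cells 1 of 22 (4.55%, against 3.45% of all reporters) rose, Cdkn2c (1.37 ± 0.27, adjusted p = 0.00271), with 6 rising under the block. The mean levels of Cdkn2c were 4.82 in naive, 3.43 and 3.50 in effector, 4.76 and 4.87 in rested, and 5.14 and 5.30 in memory Th1 and Th2 cells, a course with a low point in effector cells like that of Gimap4.

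From rest to memory, 5 of the 22 rose and 1 fell in Th1 cells, and 3 rose and none fell in Th2 cells (6 and 3, and 6 and 3, with the block). The shares that rose were 22.7% and 13.6%, against 9.42% and 2.28% of all reporters. Without the 3 genes, 4 of 19 rose in Th1 and 2 of 19 in Th2 cells. Klf4 and Klf6, zinc finger factors, rose with Tsc22d3 in both lineages, and in Th1 cells Bach2 (1.00 ± 0.25) and Txnip (0.82 ± 0.21) rose and Pdcd4 fell by 0.90 ± 0.28. Bach2 and Txnip complete the count of 5 and were named after their values were seen. Klf4 rose by 1.08 ± 0.33 in Th1 (adjusted p = 0.0282) and 2.06 ± 0.33 in Th2 cells (adjusted p = 0.000753), and Klf6 by 1.32 ± 0.33 and 1.27 ± 0.33 (adjusted p = 0.0109 and 0.0363). The Klf4 call in Th1 cells remained in 2 of 6 fits without 1 sample, and the Klf6 call in Th2 cells in 1 of 6. The list median was 0.42 in Th1 and 0.42 in Th2 cells, against 0.07 and 0.00 over all genes. Against naive cells none of the 22 was called by limma in memory Th1 or memory Th2 cells, where 4 and 5 had an unadjusted p under 0.05. With the block 2 fell in the former and 1 rose in the latter.

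**Figure D3:**
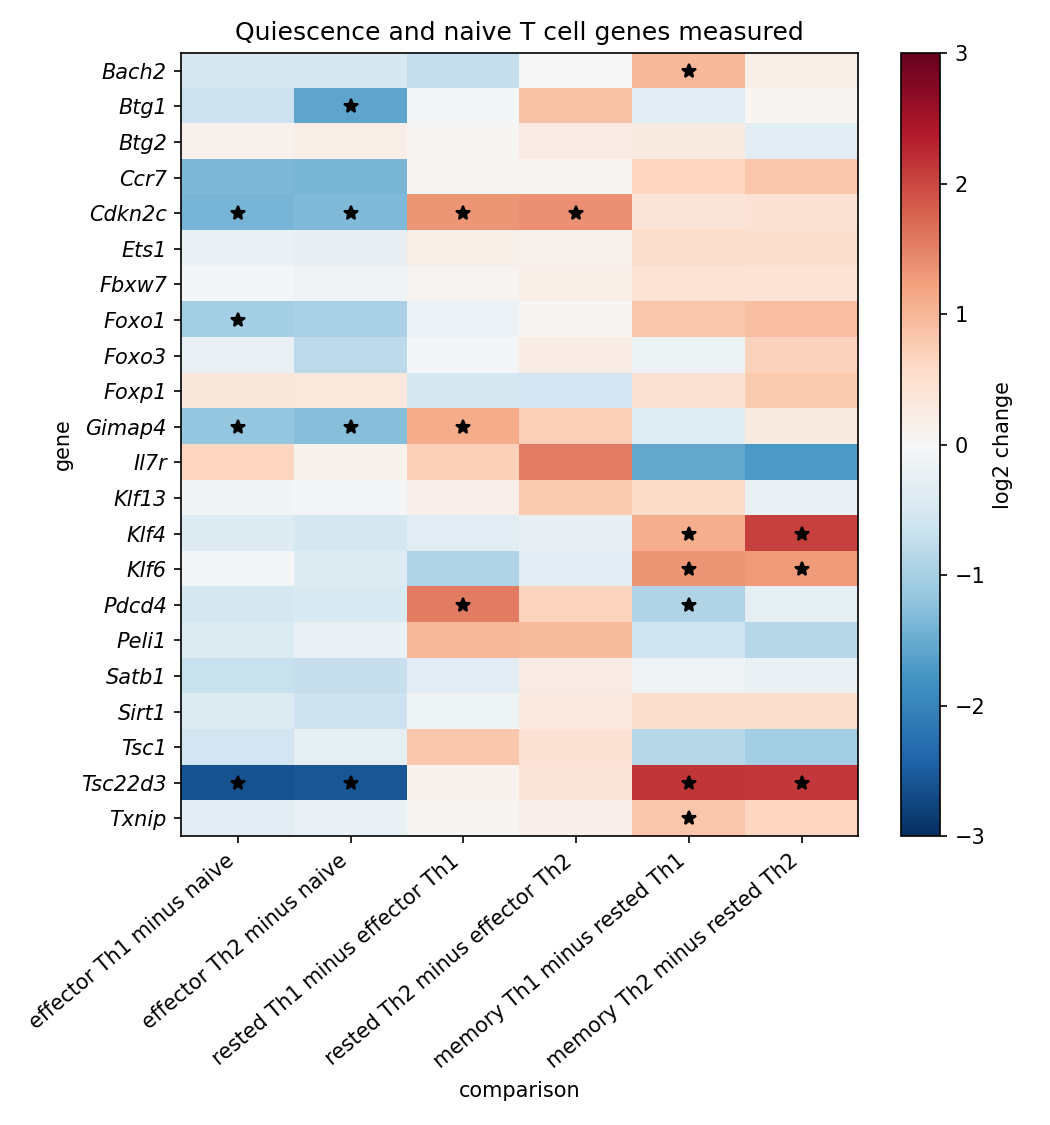
Log2 change (colour) of the 22 measured genes of the quiescence and naive T cell list in 6 comparisons, with a star at an adjusted p under 0.05. Stars of Tsc22d3 stand at effector against naive and memory against rested cells, those of Cdkn2c at effector against naive and rested against effector cells, and those of Klf4 and Klf6 at memory against rested cells.

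Relatives were measured for Tsc22d3 and Btg1. Of 4 TSC22 family genes 3 were measured. Tsc22d1, another leucine zipper protein, fell by 0.99 ± 0.30 in effector Th1 (adjusted p = 0.0405) and by 1.01 ± 0.30 in effector Th2 cells (adjusted p = 0.0368). Its mean level was 2.64 in naive cells and 1.66 and 1.63 in the effector cells, all under the median reporter, and each call remained in 2 of 6 fits without 1 sample. Tsc22d4 changed by 0.51 ± 0.42 and 0.34 ± 0.42 there and was not called. With the block its change of -1.19 from effector to rested Th1 cells was called (adjusted p = 0.000626, and 0.0629 without the block). Of 6 BTG and TOB genes, Btg2 and Btg4 were measured beside Btg1. Btg2, which acts with Btg1 in mouse T cells, changed by 0.13 ± 0.34 in effector Th1 and 0.19 ± 0.34 in effector Th2 cells (adjusted p = 0.910 and 0.869), and its group means stayed between 5.01 and 5.43. Btg4 changed by 0.09 ± 0.47 and 0.03 ± 0.47 there, and its changes of 0.87 from effector to rested Th1 and -1.19 from rested to memory Th1 cells were called with the block alone (adjusted p = 0.0350 and 0.00534, against 0.231 and 0.0830 without it). Of 8 GIMAP genes Gimap4 alone was among the measured genes.

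Of 26 genes listed for the glucocorticoid receptor and its response, 11 were measured, Tsc22d3 included. In effector Th1 cells 1 rose and 3 fell, with a median of 0.04 against -0.02 over all genes, and in effector Th2 cells 1 rose and 3 fell, with a median of -0.25 against -0.03. The share that fell was 27.3% in both, against 4.35% and 3.83% of all reporters, and 1 of the 3 was Tsc22d3 itself. Those that fell with Tsc22d3 were Nfkbia, the NF-kB inhibitor (-2.53 ± 0.23 and -2.23 ± 0.23), and Rgs2, which speeds GTP hydrolysis by G proteins (-3.20 ± 0.35 and -1.76 ± 0.35). Mt1, a metallothionein that glucocorticoids and metals induce, rose instead, by 2.91 ± 0.36 and 2.40 ± 0.36. From rest to memory 3 rose in Th1 cells (6 with the block, which also had 2 fall) and 2 in Th2 cells (4 with the block and 1 that fell), Tsc22d3 and Nfkbia among them in both. These are 27.3% and 18.2% of the list, against 9.42% and 2.28% of all reporters. Without Tsc22d3, 2 of 10 rose in Th1 and 1 of 10 in Th2 cells.

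Of 22 genes for AP-1, NF-kB, Raf and Ras partners of GILZ, 8 were measured. In effector Th1 cells Jun (1.88 ± 0.41, adjusted p = 0.00408) and Fos (1.2 ± 0.32, adjusted p = 0.0199), both AP-1 subunits, rose and Nfkbia fell, and in effector Th2 cells Nfkbia fell and none rose. The Fos call remained in 1 of 6 fits without 1 sample. The list medians were 0.41 in effector Th1 and 0.08 in effector Th2 cells. With 8 genes a single call is 12.5% of the list, here and in the next list, against 5.53% of all reporters that rose and 4.35% that fell in effector Th1, and 5.31% and 3.83% in effector Th2 cells. Of 24 genes for deadenylation and mRNA decay, the process Btg1 acts in, 8 were measured. Cnot6l, a deadenylase of the CCR4-NOT complex, fell by 1.67 ± 0.27 in effector Th1 cells (adjusted p = 0.000236) and rose on rest by 2.04 ± 0.27 in Th1 and 1.64 ± 0.27 in Th2 cells. Cnot10, another subunit, rose in effector Th1 by 1.71 ± 0.38 and in effector Th2 cells by 1.65 ± 0.38. In that list 1 rose and 2 fell in effector Th1 cells (median -0.25, and 1 and 3 with the block). In effector Th2 cells 1 rose and 1 fell (median 0.08, and 1 and 2 with the block). On rest 1 rose and 2 fell in Th1 cells (12.5% and 25%, against 7.61% and 8.61% of all reporters). In Th2 cells 2 rose and none fell on rest (25% rose, against 3.45% of all reporters), with 2 and 1 under the block.

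Of 36 cell cycle genes listed, 22 were measured, of which 11 rose and none fell in effector Th1 cells (50%, against 5.53% of all reporters, median 1.33) and 11 rose and none fell in effector Th2 cells (50%, against 5.31%, median 1.03). The other 11 were not called in either without the block. On rest 12 fell in Th1 (54.5%, against 8.61%) and 11 in Th2 cells (50%, against 4.13%), with none rising. With the block 12 rose in effector Th1 and 14 in effector Th2 cells, and on rest 14 fell in Th1 and 12 in Th2 cells. Cyclin B2 (Ccnb2) rose by 3.60 ± 0.33 in effector Th1 and fell by 3.52 ± 0.33 on rest. Against naive cells 1 of 22 was lower in rested Th1 and 1 in rested Th2 cells, the replication inhibitor Gmnn in both. Its call in rested Th2 cells remained in 1 of 6 fits without 1 sample. Tsc22d3 was low in the same rested samples, and its relation to the cell cycle genes was not tested.

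**Figure D4:**
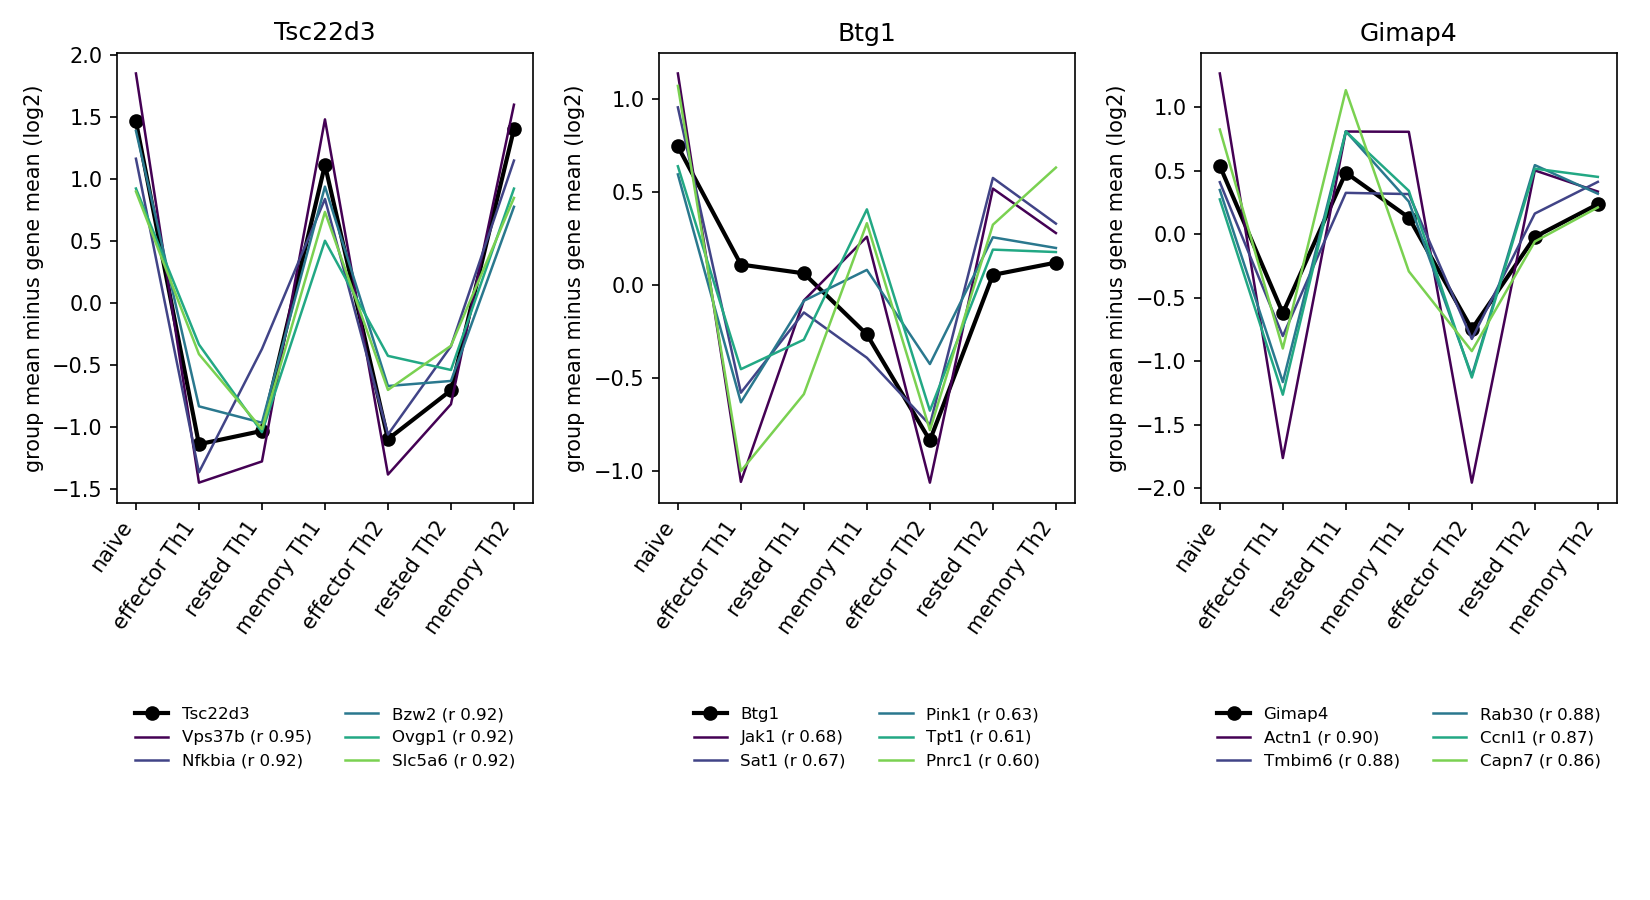
Group means of each gene (black) and of the 5 genes with the highest Pearson correlation to it over 21 samples, each minus its own mean over the 7 groups (log2 units). The genes most like Tsc22d3 are low in effector and rested cells of both lineages, those most like Gimap4 are low in effector cells, and those chosen for Btg1 follow it less closely.

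The genes most like each gene were taken among 1469 genes whose group means ranged over at least 1 log2 unit, by Pearson's r over 21 samples, which share patterns and groups, so r is given without a p. For Tsc22d3 they were Vps37b (an ESCRT-I subunit, r = 0.952), Nfkbia (0.924), Bzw2 (a translation regulator, 0.921), Ovgp1 (0.916) and Slc5a6 (a vitamin transporter, 0.915). Vps37b had group means of 6.84 in naive, 3.53 and 3.60 in effector, 3.70 and 4.16 in rested, and 6.46 and 6.58 in memory Th1 and Th2 cells. For Gimap4 they were Actn1 (alpha-actinin, 0.899), Tmbim6 (0.882), Rab30 (a small GTPase, 0.876), Ccnl1 (cyclin L1, 0.871) and Capn7 (a calpain, 0.865). Actn1 had means of 5.59 in naive, 2.57 and 2.37 in effector, 5.14 and 4.83 in rested, and 5.13 and 4.66 in memory Th1 and Th2 cells. For Btg1 the highest were lower, at 0.679 for Jak1 (a cytokine receptor kinase), 0.667 for Sat1 (a polyamine enzyme), 0.632 for Pink1, 0.608 for Tpt1 and 0.604 for Pnrc1. All 5 of these had a lower mean in effector Th1 than in rested Th1 cells, where the Btg1 means were 8.37 and 8.32.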

How the data were processed

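RNA of 21 samples of mouse CD4+ T cells (7 groups of 3, arrays a and b each) was measured on 42 one-channel arrays. Per the labels' protocols, 5 to 15 ug of total RNA was reverse transcribed with 33P-dCTP. The deposited values are spot intensities on a linear scale, 9600 for each array, and for the image reader, background treatment and normalisation by the authors the sources used here give nothing. The deposited series matrix holds intensities of the same arrays at another scale for each array and served as an alternative.

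All arrays were quantile-normalised, 1 was added, log2 was taken, and the spots of a reporter and then arrays a and b were averaged. limma 3.58.1 in R 4.3.3 (lmFit, eBayes) was fitted over 7 groups for 13 comparisons and 2 interactions, with Benjamini-Hochberg adjustment over 4992 reporters and a threshold of 0.05. The script was tested on simulated data. Every adjusted p comes from this fit unless a block is named. Symbols were updated through Entrez identifiers with RefSeq's GRCm38.p6 gene table (3605 of 3626 single-gene reporters matched). Figures used Python 3.11.15 with matplotlib 3.10.9, and promoters were searched with pandas 2.3.3.

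Same-numbered samples deviated together from their group means in all 13 comparisons (r from 0.139 to 0.909, above 0.1 for each pair). The numbers therefore pair the samples by the data and not by the labels. Values with the number as a block are printed for counts over all reporters and where they change a call of Tsc22d3, Btg1 or Gimap4. For other genes and for list counts, only some of the values that the block changed are printed. The genes and lists were chosen with earlier results of these data known. Genes named beside Tsc22d3, Btg1 and Gimap4 are the measured members of their families, up to 3 called genes for each direction, comparison and list by size, and the 5 most like genes of each. Alternatives were median centring, a pseudocount of 16, brighter reporters only, the block, the shared pattern as a random block, only the compared groups, 1 array, the series matrix and leaving out each sample.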

Additional observations from a re-analysis of the deposited data

Results flagged for a closer look

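Btg1 and Gimap4 are listed because the step from rested to memory cells ran in opposite directions in Th1 and Th2 cells. For Btg1 it was -0.33 in Th1 and 0.07 in Th2 cells, a difference of steps of -0.39 ± 0.46 (log2, adjusted p = 0.998 in limma's interaction). For Gimap4 it was -0.35 in Th1 and 0.26 in Th2 cells, a difference of -0.61 ± 0.32 (adjusted p = 0.802). With the pattern of arrays that Th1 and Th2 samples share as a random block the Gimap4 difference was called (adjusted p = 0.00933), and that of Btg1 was not. Within sample numbers Gimap4 differed by -0.45, -0.42 and -0.19 in Th1 and by 0.25, 0.24 and 0.28 in Th2 cells. With median centring the Th1 steps were 0.28 for Btg1 and 0.02 for Gimap4, so the opposite directions were not seen on that scale. Groups of 3 samples were not screened for single samples that stand apart.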

How the results depend on the processing

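Of 10 results called for these genes, 89 of 90 values under other settings kept direction and call, and all 60 without 1 sample did. The exception was Gimap4 in rested against effector Th1 cells with median centring (0.72, adjusted p = 0.0801). In that comparison centring hardly shifted the median over reporters, from -0.012 in the main fit to -0.016. Elsewhere it shifted from -0.05 to -0.13 for effector Th1 and from -0.03 to -0.11 for rested Th1 against naive cells. For memory against rested Th1 cells it went from 0.09 to 0.11. The cause of the lost call was not tested. Of 35 results not called, 14 of 315 values under other settings passed the threshold. With the replicate block these were Btg1 at 0.89 and Gimap4 at 0.73 in rested against effector Th2 and Btg1 at -1.01 in memory Th1 against naive cells; it changed no other call of the 3 genes. With the shared pattern as a random block (correlation 0.784) they were Btg1 at -1.10 and Gimap4 at -0.39 in memory Th1 and Btg1 at -0.71 in memory Th2 against naive cells, Btg1 at 0.94 between effector and Gimap4 at 0.51 between rested lineages, Btg1 at -0.94 for the rest step and Gimap4 at -0.61 for the memory step. Gimap4 in rested against effector Th2 cells was also called with a pseudocount of 16 (0.55), brighter reporters only (0.73, fewer tests), array b only (0.84) and the series matrix (0.63).

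Directions that turned were all of uncalled results. With array a only, Tsc22d3 in rested against effector Th1 cells was -0.0203. With array b only, Btg1 was 0.10 in rested against effector Th1 and -0.0308 in memory against rested Th2 cells, and Gimap4 was 0.0927 in rested Th1 against naive cells. With the shared pattern block, Btg1 in memory against rested Th2 cells was -0.0075 and Gimap4 in rested Th1 against naive cells 0.0136. With median centring, Btg1 and Gimap4 in memory against rested Th1 cells were 0.28 and 0.0158, Btg1 in rested Th1 against Th2 cells -0.23 and Gimap4 in memory Th1 against Th2 cells 0.089. The Tsc22d3 memory step interaction was -0.0756 with a pseudocount of 16 and -0.0513 with the series matrix.

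Without 1 sample at a time, Btg1 in effector Th1 against naive cells ranged from -1.04 to -0.30, called only without effector Th1 sample 1. The ranges that crossed 0 were -0.14 to 0.36 for Tsc22d3 and -0.39 to 0.35 for Btg1 in rested against effector Th1, -0.18 to 0.0878 for Gimap4 in rested Th1 against naive, -0.25 to 0.0591 for Tsc22d3 in memory Th2 against naive, -0.29 to 0.21 for Tsc22d3 between effector, -0.12 to 0.14 for Btg1 between rested and -0.28 to 0.0704 for Gimap4 between memory lineages, and -0.15 to 0.18 for the Tsc22d3 memory step. Counts over all reporters moved more. Under the other settings they ran from 400 to 836 and 382 to 761 in effector Th1 and Th2 against naive cells, 570 to 1362 and 273 to 790 on rest, 182 to 1607 and 46 to 719 from rest to memory, and 268 to 1082 and 67 to 344 for rested against naive cells, with the highest under the block. They ran from 8 to 1489 and 4 to 1187 for memory against naive cells, 7 to 121, 0 to 1005 and 0 to 396 between effector, rested and memory lineages, and 2 to 398 and 0 to 823 for the rest and memory interactions, with the highest under the shared pattern block. Without 1 sample they ran from 522 to 834 and 214 to 367 on rest, 555 to 882 and 94 to 305 from rest to memory, 273 to 556 and 72 to 98 for rested and 14 to 94 and 6 to 33 for memory against naive cells. They ran from 6 to 9, 0 to 43 and 4 to 17 between effector, rested and memory lineages, and from 2 to 4 and 1 to 26 for the rest and memory interactions. Median centring moved the share of higher calls from 45.5% to 32.8% in rested against effector Th2, from 53.0% to 63.1% in memory against rested Th1, and from 46.2% to 63.4% and 50% to 37.5% in memory Th1 and Th2 against naive cells. The lack of a background reading limits what can be said of reporters near the median level of 3.13.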

Other observations

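The intensities before normalisation ran differently from the levels in some steps. For Btg1 in memory over rested Th1 cells, the 4 spot ratios of intensity ran from 1.44 to 1.92 in sample 1, from 1.12 to 1.46 in sample 2 and from 0.669 to 0.966 in sample 3, while the normalised differences were -0.09, -0.36 and -0.53. For Tsc22d3 in the same pairs the ratios ran from 5.54 to 7.18, from 4.34 to 5.89 and from 2.98 to 5.03, and the normalised differences of 2.23, 2.04 and 2.18 lay closer to each other. For Gimap4 in rested over effector Th1 cells the ratios ran from 0.929 to 1.53 in sample 1, from 1.16 to 1.28 in sample 2 and from 2.49 to 3.40 in sample 3.

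Single marker genes of other cells also changed. Of 10 stromal markers 5 were measured, of which Fn1 and Pdgfrb rose in effector cells, by 2.03 and 1.92 in Th1 and by 2.00 and 1.82 in Th2. Col4a1 (-0.49 and -0.58), Dcn (-0.35 and -0.38) and Sparc (1.08 and 0.18) were not called there, and Sparc was called in Th1 with the block (adjusted p = 0.0157). The stromal list, most of whose sum in effector cells was Fn1, summed to a normalised intensity of 60.5 to 91.9 in naive against 172.2 to 228.5 in effector Th1 and 165.5 to 235.3 in effector Th2 samples. The granulocyte genes S100a9 and Ltf were lower in memory Th1 than in memory Th2 cells by 2.75 and 1.37 (changes of -2.75 and -1.37). Their means in memory Th1 cells were 0.44 and 1.42, under the median reporter. The brightest granulocyte marker, Csf3r, had a mean of 7.15 in both. Lyz2 was lower by 1.98 (a change of -1.98), the 1 called of 6 macrophage and dendritic markers. No gene of Tsc22d3, Btg1 and Gimap4 was called in this comparison. Of 7 erythroid and platelet markers 2 were measured, both under the median reporter in every group. Their sum ran from 2.64 to 5.62 in memory Th1 and from 10.97 to 15.3 in rested Th1 samples. It was 6.20 to 6.52 in naive, 6.06 to 6.41 in effector Th1 and 5.85 to 6.50 in effector Th2 samples. In rested Th2 samples it was 5.19 to 8.70, and in memory Th2 samples 6.09 to 7.14.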
